A study of Bos taurus with 2 samples.

Results

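The genes described here are 10 regulators of mitosis, AURKA, AURKB, PLK1, BUB1, BUB1B, TTK, NEK2, CDC20, BIRC5 and TOP2A. They were listed by name, with earlier results of these data known, and all 10 were found among the 21867 genes of the deposited count matrix, 16816 of which had at least 1 unique molecular identifier (UMI, a tag that lets each captured RNA molecule be counted once). The cells were satellite cells isolated from the skeletal muscle of 1 male Holstein calf aged 2 weeks and grown for 1 week in growth medium with serum. Satellite cells are the stem cells of skeletal muscle, and their daughters, the myoblasts, divide before they differentiate into myocytes. Libraries 1 and 2 were both prepared on the 10x Genomics platform from these same cells, without any treatment, so that every spread given below is between library preparations, and no value speaks to differences among animals. The comparisons are therefore between the 15 clusters of cells that the study defined, of which the study called clusters 1 and 2 myoblasts, clusters 3 and 12 myocytes, clusters 4, 5 and 8 satellite cells and clusters 7 and 9 fibro-adipogenic progenitors, and left the others without an identity.

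Entry into mitosis, the attachment of chromosomes to the spindle and the separation of sister chromatids are driven by a small set of protein kinases and by a checkpoint that holds the cell until every chromosome is attached. AURKA acts at the centrosomes and the spindle poles, AURKB corrects faulty attachments at the centromeres, PLK1 acts at nearly every step from entry to cytokinesis, and NEK2 separates the centrosomes. TTK, BUB1 and BUB1B work at the kinetochore, where they set up the checkpoint signal, and CDC20 is the activator of the anaphase-promoting complex that this signal holds back. BIRC5, or survivin, is a subunit of the chromosomal passenger complex of AURKB, and TOP2A untangles the sister DNA molecules. The messenger RNAs of these genes are known to build up in G2 and M phase, which is why they are widely used to recognise dividing cells.

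The 9939 cells of library 1 held 145631299 UMIs and the 9157 cells of library 2 held 137818568 UMIs, with medians of 14626 and 15206 UMIs per cell. Clusters 7, 13, 14 and 15 were shallow, with median depths of 1389, 1631, 2513.5 and 647 UMIs per cell, against 12929 to 23011 in the other clusters apart from cluster 10, with 5398.5. A level is the sum of a gene's UMIs over the cells of a cluster in 1 library, per 10000 UMIs of those cells. The markers differed among the clusters, since MYOG, a regulator of differentiation, had a level of 18.6 ± 0.779 in cluster 12 and 6.68 ± 0.107 in cluster 3 (mean ± SD of 2 libraries), and PDGFRA, a fibro-adipogenic marker, was at 1.58 ± 0.0744 in cluster 9 and 1.48 ± 0.362 in cluster 7. MYOD1, the myoblast regulator, was at 6.72 ± 0.425 in cluster 2 and 2.71 ± 0.00838 in cluster 4. PAX7, the defining marker of satellite cells, was nearly absent, with at most 39 UMIs in a cluster, and these 39 were in cluster 4. Its level there, 0.0112, was close to the 0.0103 of cluster 11 and the 0.0101 of cluster 8, and cluster 13 had 0.0119 from 1 UMI. Scores for doublets, which are droplets that caught more than 1 cell, marked 582 cells (5.86%) of library 1 and 571 cells (6.24%) of library 2, and a total of 27 barcodes occurred in both libraries.

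The highest level was in cluster 2 for 6 genes and in cluster 4 for the other 4, and these clusters held 20.4% of the cells, 26.2% of all UMIs and 60.2% of the 252740 UMIs of these genes. Together they made up 20.6 ± 0.544 of 10000 UMIs in cluster 4 and 20.4 ± 0.382 in cluster 2 (SD, n = 2 libraries). Cluster 7 followed with 11.9 ± 0.0878, then cluster 9 with 10.0 ± 0.521 and cluster 15 with 9.89 ± 0.0383. Cluster 15 had only 217 UMIs of these genes, and its small SD does not cover the counting error. Clusters 10, 6, 13, 11 and 14 lay between 6.56 and 8.04, cluster 5 was at 3.54 ± 0.0361, and the lowest were clusters 3, 1, 12 and 8 with 2.48, 2.08, 1.40 and 1.30. These levels are a description, because the clusters were made from the same counts.

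**Figure D1:**
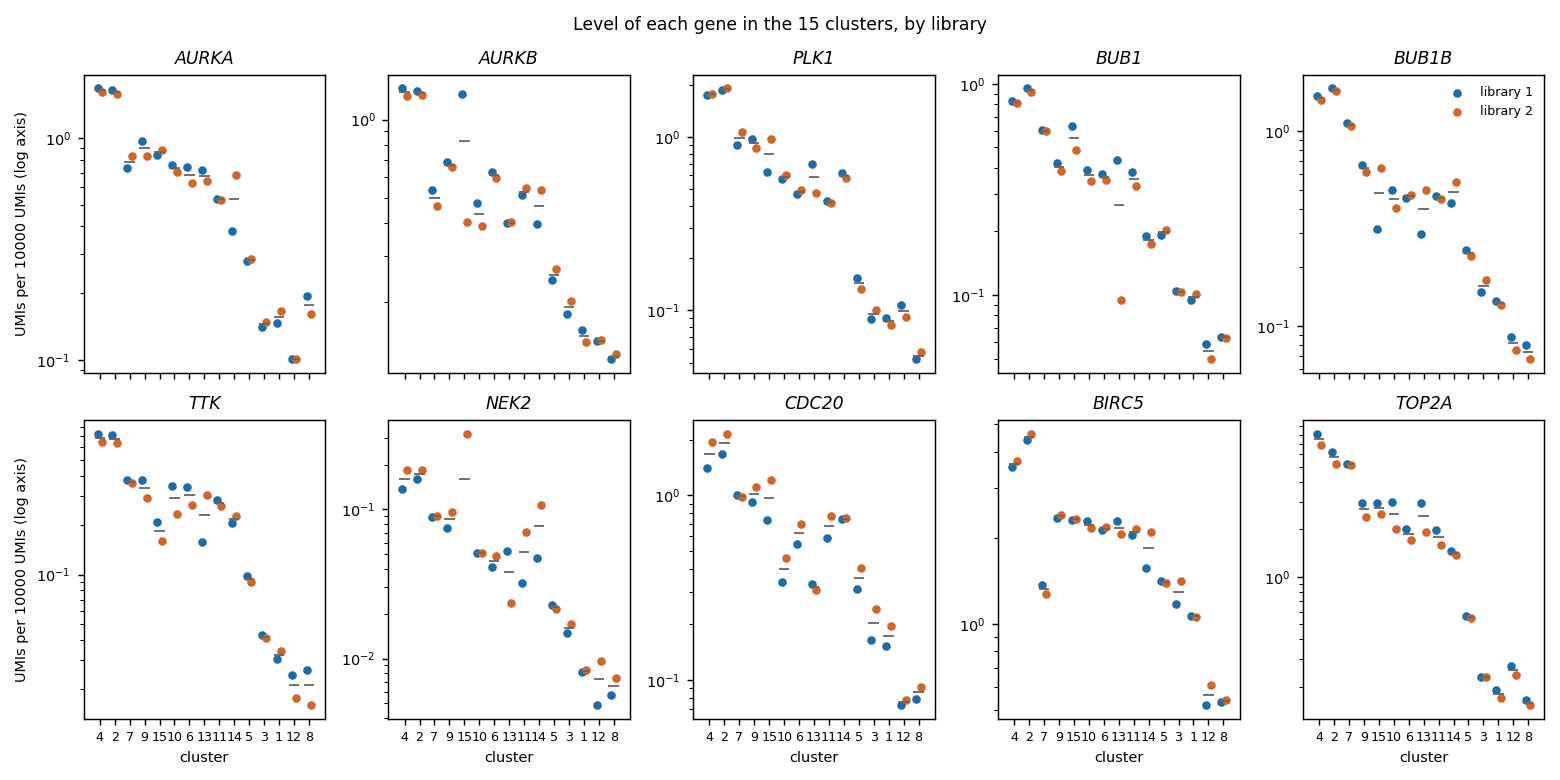
Level of each of the 10 genes (vertical axis, UMIs per 10000 UMIs, log scale) in the 15 clusters, which are ordered along the horizontal axis from the highest to the lowest summed level. Points are libraries 1 and 2 and bars their mean, and NEK2 in cluster 15 has no point for library 1, where it had 0 UMIs. In every panel clusters 2 and 4 at the left are at or near the top and clusters 3, 1, 12 and 8 at the right are the lowest.

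Among the kinases of the spindle, AURKA was at 1.68 and 1.61 in libraries 1 and 2 of cluster 4, at 1.65 and 1.58 in cluster 2, and at 0.971 and 0.830 in cluster 9. Its lowest level was in the myocytes of cluster 12, with 0.101 in each library, which is 16.3-fold under cluster 4. The values of clusters 4 and 2 overlapped, and both lay above those of every other cluster. AURKB was at 1.32 and 1.23 in cluster 4 and at 1.29 and 1.24 in cluster 2, and again these values overlapped. It fell to 0.120 and 0.126 in cluster 8, a ratio of 10.4 between the highest and the lowest cluster. In cluster 15 the libraries disagreed, with 1.26 and 0.403 for AURKB from 12 and 5 UMIs.

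PLK1 had a wider range, from 1.87 and 1.91 in cluster 2 to 0.0521 and 0.0577 in cluster 8, a ratio of 34.5. Cluster 4, with 1.76 and 1.77, was below cluster 2 in both libraries, and cluster 7 (0.903 and 1.07) and cluster 9 (0.972 and 0.863) came next with overlapping values. NEK2 was the rarest of the genes, with 1912 UMIs in 1611 cells. It reached 0.159 and 0.185 in cluster 2 and 0.137 and 0.183 in cluster 4, and was at 0.00566 and 0.00736 in cluster 8, where it rested on 5 and 6 UMIs. In the shallow cluster 15 it had 0 UMIs in library 1 and 4 in library 2, where these gave a level of 0.322, above clusters 2 and 4.

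The kinetochore kinases followed the same outline. TTK was highest in cluster 4, with 0.726 and 0.647, and overlapped there with cluster 2, with 0.710 and 0.638. Its lowest level was 0.0244 and 0.0176 in cluster 12, which is 32.7-fold lower. BUB1 was at 0.955 and 0.912 in cluster 2, above the 0.831 and 0.812 of cluster 4, and at 0.0585 and 0.0495 in cluster 12. BUB1B was at 1.66 and 1.59 in cluster 2, at 1.51 and 1.44 in cluster 4 and at 1.09 and 1.06 in cluster 7, and for this gene these 3 clusters were in the same order in both libraries with no overlap. Cluster 7 held rank 3 for 5 of the 10 genes, and cluster 9 for 3. These ranks rest on plain levels, and the order of clusters 7 and 9 depends on the scaling. Under the TMM scaling of the tests below, PLK1 and TTK were lower in cluster 7 than in cluster 9, with log2 differences of -0.39 and -0.37. Those of BUB1, BUB1B and TOP2A, also at rank 3 in cluster 7, were above 0.

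CDC20 was at 1.68 and 2.16 in cluster 2 and at 1.41 and 1.96 in cluster 4, against 0.0732 and 0.0783 in cluster 12. Its level was higher in library 2 in 13 of 15 clusters, and over all cells it was 1.32-fold higher in library 2 than in library 1. NEK2 had a ratio of 1.27 in the same direction, whereas TOP2A was lower in library 2 in 14 of 15 clusters, with a ratio of 0.857 over all cells. The other 7 genes had ratios from 0.881 to 1.05. These shifts between library preparations enter the standard errors of the genes.

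BIRC5 was at 4.42 and 4.64 in cluster 2, at 3.55 and 3.73 in cluster 4 and at 0.532 and 0.541 in cluster 8. Its ratio of 8.44 between the highest and the lowest cluster was the smallest among the 10 genes, and 48.8% of its 62568 UMIs came from clusters 2 and 4. TOP2A stood at the other end, with 8.10 and 6.88 in cluster 4, 6.23 and 5.22 in cluster 2 and 5.23 and 5.10 in cluster 7, but 0.164 and 0.153 in cluster 8. Its ratio was 47.2, and 68.2% of its 71339 UMIs came from clusters 2 and 4. Clusters 1, 3, 8 and 12 were the lowest 4 for each of the 10 genes. Across the 10 genes, 65 of the 140 neighbouring pairs in these orders of clusters had library values that did not overlap. With 2 libraries values can also lie apart without a difference, and the share for other genes was not computed, so nothing is read from this count. The same limit holds for every other statement on overlap given here.

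The make-up of the mitotic UMIs differed between the clusters. BIRC5 gave 51.1% of the UMIs of the 10 genes in cluster 1 and 52.0% in cluster 3, but 22.3% in cluster 2, 17.6% in cluster 4 and 11.1% in cluster 7. For TOP2A the order was turned around, with 8.7% in cluster 1 and 9.4% in cluster 3 against 28.1% in cluster 2, 36.2% in cluster 4 and 43.5% in cluster 7. These shares did not simply follow the amount of mitotic UMIs. Clusters 8 and 12, with the lowest summed levels, had 41.2% and 40.2% for BIRC5 and 12.2% and 18.2% for TOP2A. PLK1 rose from 4.2% in cluster 1 to 9.3% in cluster 2, while BUB1 kept between 2.8% and 5.6% in all 15 clusters. UMIs were not corrected for gene length or capture, so that these shares can be set side by side between clusters but not read as the abundance of 1 protein against another.

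**Figure D2:**
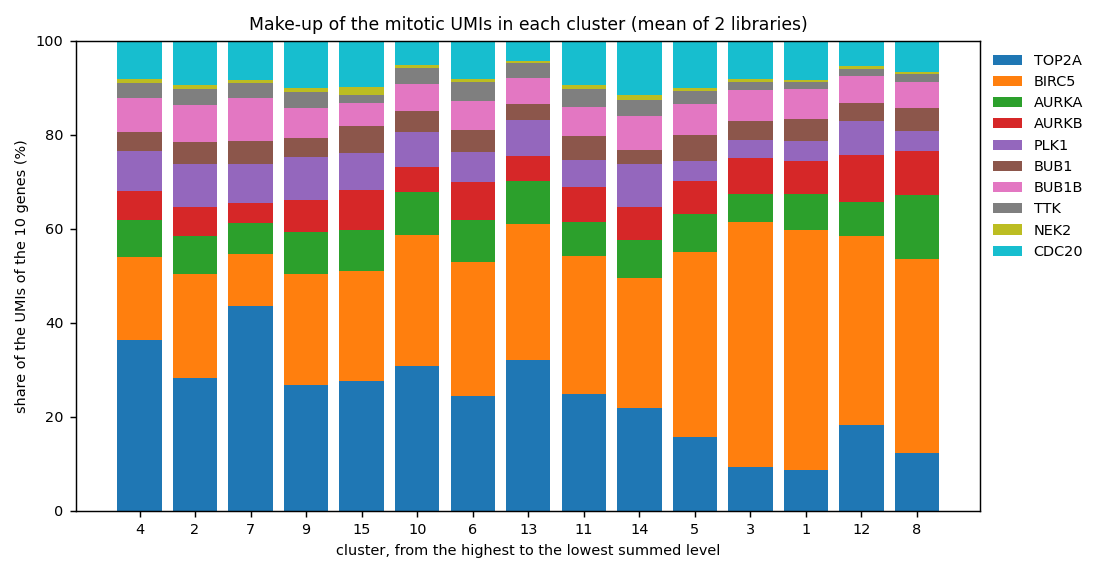
Share of each gene (vertical axis, percent) in the UMIs of the 10 genes for each cluster, mean of 2 libraries, with clusters ordered from the highest to the lowest summed level. The TOP2A part is largest in cluster 7 with 43.5% and the BIRC5 part in cluster 3 with 52.0%.

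The share of cells with a UMI was compared after each cell had been thinned to 2000 UMIs, which 17198 of 19096 cells allowed and no cell of cluster 15. A TOP2A UMI was then found in 66.8% of the cells of cluster 4 (95% exact binomial interval 64.5% to 69.0%, which covers counting error only) and in 51.2% of those of cluster 2 (49.0% to 53.3%). BIRC5 went the other way, with 49.9% of the cells of cluster 4 (47.6% to 52.3%) and 59.1% of those of cluster 2 (57.0% to 61.2%). Cluster 12, the myocytes with the most MYOG, was taken as the background, since differentiated myocytes should have left the cycle and free RNA in the droplets can still give them UMIs. The amount of free RNA was not estimated. Doublets were marked among 2.87% of the cells of cluster 12 and 0.483% of those of cluster 8, and their part in these UMIs was not tested. In cluster 12 a TOP2A UMI was found in 3.5% of 627 cells (2.2% to 5.3%) and a BIRC5 UMI in 7.2% (5.3% to 9.5%), at full median depths of 19113 UMIs in cluster 12, 17481 in cluster 2 and 18770 in cluster 4. TTK and NEK2 had 0 of 627 cells, which allows a share of cells with a UMI of up to 0.478% by a limit of 3 counts and of up to 0.587% by the exact interval, against 12.9% and 3.1% in cluster 4. Without thinning, the shares in cluster 12 were 19.8% for TOP2A and 45.8% for BIRC5, and those in cluster 4 were 94.4% and 99.2%. Cluster 8 was close to cluster 12 in the thinned shares of TOP2A (3.0%) and AURKA (3.3% against 2.6%), while its BIRC5 share was 10.2%.

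A thinned cell of cluster 2 had UMIs of 2.78 ± 0.0211 of the 10 genes on average (SD, n = 2 libraries), and a cell of cluster 4 of 2.78 ± 0.0249. This mean was 1.58 ± 0.187 in cluster 9 and 1.61 ± 0.0135 in cluster 7, of which 308 cells were deep enough, and 0.206 ± 0.0262 in cluster 12. Cells with 5 or more of the genes numbered 607. Cluster 2 had 273 of them and cluster 4 had 237, together 84.0% (95% exact binomial interval 80.9% to 86.8%), and clusters 9 and 7 had 35 and 17. This share depends on the thinning, and without it clusters 2 and 4 held 52.5% of the cells with 5 or more of the genes. At full depth all 10 genes were seen together in 556 cells, of which 256 belonged to cluster 2, 216 to cluster 4, 60 to cluster 9 and 17 to cluster 6.

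The G2/M clusters were then set against S phase clusters, cluster 2 against 6 and cluster 4 against 11. Clusters 6 and 11 had the highest levels of the S phase list of 43 genes, 44.6 ± 1.39 and 46.4 ± 1.40 (SD, n = 2 libraries), and clusters 2 and 4 the highest levels of a list of 46 G2/M genes without the members, 139 ± 3.18 and 125 ± 3.70. MYOD1 was at 5.75 ± 0.444 in cluster 6 and 6.72 ± 0.425 in cluster 2, but at 1.35 ± 0.0764 in cluster 11 against 2.71 ± 0.00838 in cluster 4. COL1A1, a collagen gene, was at 21.5 in cluster 6 and 18.9 in cluster 2, and at 24.9 in cluster 11 against 48.4 in cluster 4. The other fibro-adipogenic markers did not all follow it, with PDGFRA at 0.271, PPARG at 0.0314 and ZNF423 at 0.0344 in cluster 11. In cluster 4 they were at 0.222, 0.0311 and 0.0438. In the first pair MYOG was at 0.720 in cluster 6 and 1.09 in cluster 2. Both pairs thus differed in markers of cell type, whose part in the differences was not tested. Each comparison used UMI sums per library, 2 against 2, in the quasi-likelihood test of edgeR, with p-values adjusted after Benjamini and Hochberg over all genes tested. This test left out the pairing of sums by library, so that shifts shared by the sums of a library counted as error. Fits with the library as a block used the pairing. For 2 clusters such a fit leaves very little from which to estimate the spread between preparations. Its adjusted p fell as low as 3.7e-195 (AURKA, cluster 2 against cluster 6, edgeR with the block). The p-values of these fits are therefore not read as a measure of that spread. Genes with an adjusted p under 0.05 were called. Since the clusters had been made from these counts, such a p is no independent evidence of a difference. Clusters 2 and 4 were also chosen by genes of the same phase as the members, so that higher levels of the members there were to be foreseen.

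All 10 genes were called higher in cluster 2 than in cluster 6, where 7.43% of the 11430 genes tested were called higher and 7.2% lower. The median log2 fold change of the 10 was 1.47, against -0.01 over all genes tested. PLK1 was at 0.472 and 0.496 in cluster 6, and differed from cluster 2 by 1.94 ± 0.05 on the log2 scale (SE, adjusted p = 6.2e-06, edgeR). NEK2, with 0.0411 and 0.0485 in cluster 6, differed by 1.92 ± 0.13, and BUB1B, with 0.454 and 0.469, by 1.79 ± 0.05. The smallest differences were those of AURKB, 1.02 ± 0.05, and BIRC5, 1.05 ± 0.04, and no value of either cluster overlapped the other for any of these 5 genes. Between clusters 4 and 11 all 10 genes were again called higher, where 13.4% of the 11170 genes tested were called higher and 14.3% lower, with a median of 1.51. TOP2A was at 1.99 and 1.59 in cluster 11 and differed by 2.09 ± 0.11 (adjusted p = 3.0e-05, edgeR), and PLK1 by 2.09 ± 0.05. BIRC5 had the smallest difference here too, 0.82 ± 0.05, with 2.05 and 2.15 in cluster 11.

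The pathway around the members was examined by lists of genes grouped by role. Some of their genes, NDC80 and NUF2 among them, are also in the G2/M list by which clusters 2 and 4 were chosen. For those genes a higher level in clusters 2 and 4 is no separate evidence. Of 8 partners of the aurora kinases, 7 were called higher in cluster 2 than in cluster 6 and 0 lower, with SGO2, a protector of centromeric cohesion, at 1.75 and INCENP, the scaffold of the passenger complex, at 1.61 on the log2 scale. Of 14 checkpoint and kinetochore genes, 7 were called higher and 0 lower, led by NDC80 (1.59) and NUF2 (1.27), both subunits of the complex that grips microtubules. The anaphase-promoting complex and its regulators gave 8 higher and 1 lower of 18 tested, led by ESPL1, the protease that cuts cohesin, at 1.58. Of 11 genes of mitotic entry 6 were called higher and 2 lower, with CCNB1, the cyclin partner of CDK1, at 2.24. Condensin subunits were called higher for 7 of 8. Among 14 genes of a list of transcription factors and their partners, which was not limited to factors of G2/M promoters, 1 was called higher and 4 lower. The 2 with the largest changes were E2F1 (-0.83) and LIN54 (-0.53). Between clusters 4 and 11 the counts were 8 of 8 higher for the aurora partners, 7 of 14 for the checkpoint list and 8 of 8 for condensin, while the anaphase-promoting complex list gave 7 higher and 3 lower of 18 and mitotic entry 6 higher and 1 lower of 11. The transcription factor list gave 1 higher and 3 lower of 14, with FOXM1, a factor of G2/M transcription, at 1.27 and E2F1 at -0.57. A list of relatives of the members, such as other polo-like and NEK kinases and TOP2B, also held the kinases PBK and MELK, which are of other families. It gave 4 higher and 1 lower of 16 tested in clusters 2 and 6 and 4 higher and 1 lower of 17 in clusters 4 and 11. PBK had the largest change in both, with 1.12 and 1.33. The medians of this list were 0.09 and 0.06.

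Between clusters 5 and 8, both called satellite cells, all 10 genes were called higher in cluster 5, where 16.3% of the 10948 genes tested were called higher and 12.2% lower. TTK had 0.0974 and 0.0903 in cluster 5 and 0.0261 and 0.0159 in cluster 8, with a log2 difference of 2.15 ± 0.24 (SE, adjusted p = 0.000458, edgeR). CDC20 had 0.310 and 0.405 in cluster 5, above the 0.0793 and 0.0920 of cluster 8, and differed by 2.06 ± 0.16. The smallest difference was that of AURKA, 0.66 ± 0.11, from 0.279 and 0.285 in cluster 5 and 0.194 and 0.162 in cluster 8. The S phase level was 29.8 ± 0.646 in cluster 5 and 10.9 ± 0.257 in cluster 8, and 42 of 43 S phase genes were called higher. Condensin was called higher for 8 of 8 subunits, the checkpoint list for 12 of 13 and mitotic entry for 10 of 11. Doublets were marked among 10.5% of the cells of cluster 5 and 0.483% of those of cluster 8, and leaving them out kept the 10 calls.

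In the myocytes, cluster 12 was set against cluster 3. Here 6 of the 10 genes were called lower in cluster 12 and 0 higher, where 18.2% of the 10811 genes tested were called higher and 15.6% lower. CDC20 was at 0.165 and 0.244 in cluster 3 against 0.0732 and 0.0783 in cluster 12, a log2 difference of -1.33 ± 0.23 (SE, adjusted p = 0.00315, edgeR). BIRC5 was at 1.18 and 1.41 in cluster 3 and at 0.519 and 0.607 in cluster 12, with -1.10 ± 0.10 (adjusted p = 0.000147, edgeR). BUB1, BUB1B, TTK and AURKA were also called lower, with -0.84, -0.88, -0.90 and -0.43, but DESeq2 did not call BUB1, TTK and AURKA (adjusted p = 0.0581, 0.268 and 0.302). AURKB was not called (adjusted p = 0.0582, edgeR) but was with the library as a block (adjusted p = 0.0279). TOP2A, at 0.230 and 0.231 in cluster 3 and 0.272 and 0.238 in cluster 12, and PLK1, at 0.0893 and 0.100 against 0.107 and 0.0911, gave differences of 0.24 ± 0.10 and 0.16 ± 0.16 that did not pass the test (adjusted p = 0.104 and 0.476, edgeR). NEK2 did not pass either, with -1.02 ± 0.45 (adjusted p = 0.12, edgeR). Fewer cycling cells and less RNA per cell cannot be told apart in such sums. The checkpoint list gave 5 lower and 1 higher of 12, led by NUF2 (-1.55), and mitotic entry 2 lower and 0 higher of 10, CCNB2 (-1.69) and CCNB1 (-0.55). Among the aurora partners 2 were called higher and 1 lower of 8, near the shares over all genes, with SGO1 at 1.21 and CDCA8, a passenger complex subunit, at 0.86. Without TMM scaling the median of all genes in this comparison was -0.12 in place of -0.02, with 1552 genes called higher and 2527 lower in place of 1963 and 1687.

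**Figure D3:**
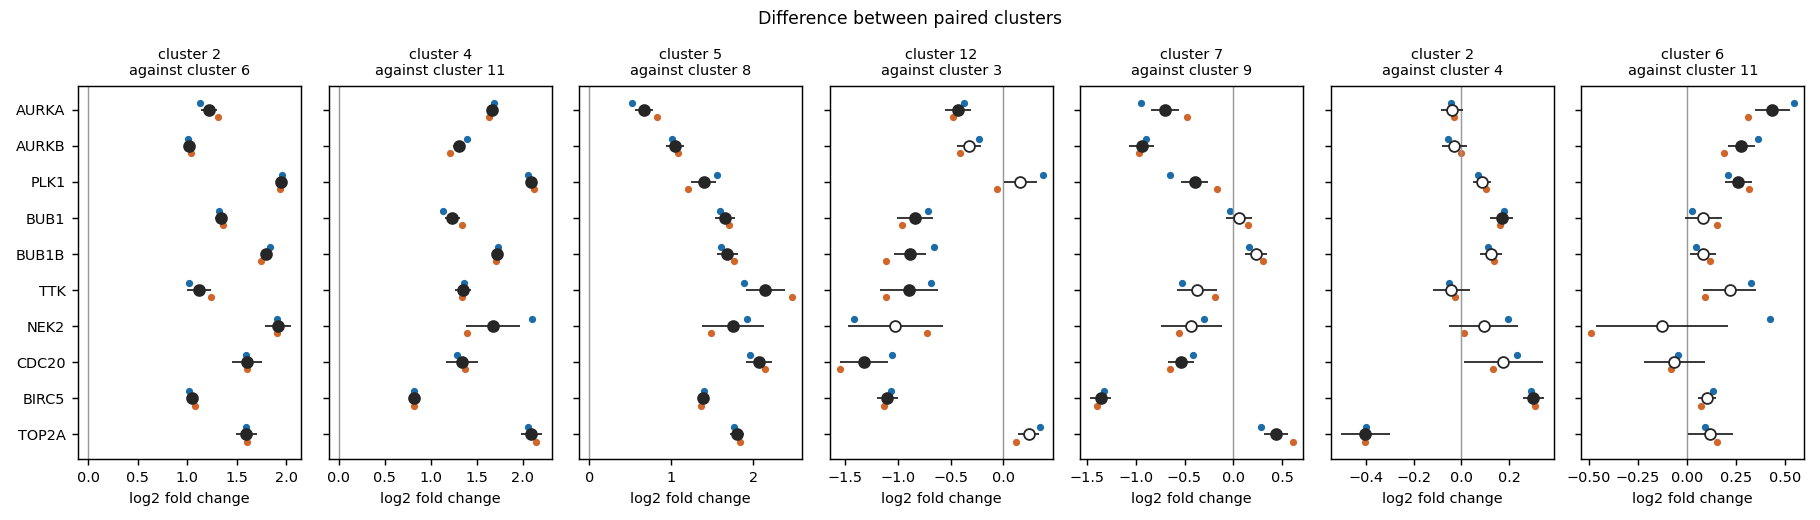
Log2 fold change of each gene in 7 comparisons of clusters, with black circles for the fitted value, filled where called, bars for its standard error, and blue and orange points for the ratio within libraries 1 and 2. Each panel has its own horizontal scale. The 10 circles are filled and to the right of 0 in the panels of cluster 2 against 6, 4 against 11 and 5 against 8, while in cluster 7 against 9 the circle of TOP2A is on the right (0.44) and that of BIRC5 on the left (-1.36).

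Clusters 7 and 9, both called fibro-adipogenic by the study, were the next pair compared. Cluster 7 also held muscle RNA, with a summed level of 7.67 for 5 of 5 myocyte markers and 8.72 for 3 of 3 myoblast markers, against 0.466 and 1.59 in cluster 9. MYH3, an embryonic myosin, was at 4.74 and 0.125, and COL1A1 at 147 and 24.6. The part of these markers in the differences was not tested. Under TMM scaling TOP2A was called higher in cluster 7 and 5 genes were called lower, where 26.6% of the 10785 genes tested were called higher and 29.9% lower. TOP2A was at 5.23 and 5.10 in cluster 7 and at 2.95 and 2.40 in cluster 9, with a log2 difference of 0.44 ± 0.13 (SE, adjusted p = 0.0202, edgeR). BIRC5 was at 1.37 and 1.27 against 2.35 and 2.41, with -1.36 ± 0.11 (adjusted p = 4.7e-05, edgeR). AURKB (-0.94 ± 0.13), AURKA (-0.70 ± 0.15), CDC20 (-0.54 ± 0.13) and PLK1 (-0.39 ± 0.14) were also called lower, PLK1 not with the library as a block (adjusted p = 0.0592). BUB1, BUB1B, TTK and NEK2 were not called. The plain levels of PLK1, 0.903 and 1.07 in cluster 7 and 0.972 and 0.863 in cluster 9, overlapped. Those of CDC20 overlapped too, with 0.990 ± 0.0195 in cluster 7 and 1.01 ± 0.130 in cluster 9 (SD, n = 2 libraries). Without TMM scaling the median of all genes moved from -0.05 to 0.46, the whole table had 4587 genes called higher and 1904 lower in place of 2864 and 3229, and the members gave 3 higher and 2 lower, with PLK1 (0.11), TTK (0.13) and NEK2 (0.074) reversed and not called. TOP2A stayed on the higher side and BIRC5 on the lower under every setting run. Over these settings the adjusted p reached 0.873 for CDC20, 0.494 for PLK1, 0.275 for AURKA and 0.0630 for AURKB (edgeR or DESeq2). Cells under 2000 UMIs made up 76.3% of cluster 7 and 0% of cluster 9, and doublets 0.231% and 12.96%. Without the shallow cells 1 member was called higher and 2 lower, where 1817 of the 10582 genes tested were called higher and 2315 lower. The part of depth in these differences was not tested beyond these counts.

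Clusters 2 and 4, with the most G2/M RNA, were also set against each other. BIRC5 and BUB1 were called higher in cluster 2 than in cluster 4 and TOP2A lower, where 14.5% of the 11561 genes tested were called higher and 15.7% lower, so that 3 of 10 members is near this background. The log2 differences were 0.30 ± 0.04 for BIRC5 (SE, adjusted p = 0.00289, edgeR), 0.17 ± 0.05 for BUB1 (adjusted p = 0.0389) and -0.40 ± 0.10 for TOP2A (adjusted p = 0.0272) and for none of these 3 genes did the levels of the clusters overlap. With DESeq2, and also with no filter on low counts, BIRC5 alone was called. With the library as a block 5 members were called higher and 1 lower, since PLK1, BUB1B and CDC20 passed too (adjusted p = 0.031, 0.0031 and 0.000174). With that block 2681 of the 11561 genes tested were called higher and 2770 lower. For AURKA the difference was -0.04 ± 0.05 and for AURKB -0.03 ± 0.05. The anaphase-promoting complex list gave 3 higher and 2 lower of 18, led by its inhibitor FBXO5 (-0.62) and its subunit CDC16 (0.24). The aurora partners gave 1 higher and 2 lower of 8, led by HASPIN (-0.41) and SGO1 (-0.29), the checkpoint list 1 higher and 2 lower of 14, and the G2/M list 15 higher and 1 lower of 46, led by JPT1 (0.80).

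Between the S phase clusters, AURKA, AURKB and PLK1 were called higher in cluster 6 than in cluster 11 and 0 members lower, where 8.75% of the 11041 genes tested were called higher and 7.72% lower. AURKA was at 0.739 and 0.630 in cluster 6 and at 0.532 and 0.528 in cluster 11, a log2 difference of 0.43 ± 0.09 (SE, adjusted p = 0.017, edgeR). AURKB differed by 0.28 ± 0.07 (adjusted p = 0.0348) and PLK1 by 0.26 ± 0.07 (adjusted p = 0.0412). With the library as a block TTK, BIRC5 and TOP2A passed as well, where 1827 of the 11041 genes tested were called higher and 1649 lower. Without TMM scaling, where 720 genes were called higher and 1215 lower in place of 966 and 852, only AURKA passed, as with DESeq2. UBE2C, a ubiquitin-conjugating enzyme of the anaphase-promoting complex, was higher in cluster 6 by 0.59 and FOXM1 by 0.69, each the single call of its list by role. The G2/M list, which also holds UBE2C, gave 12 higher and 0 lower of 46. The list of relatives of the members gave 1 higher and 2 lower of 16, led by NEK6 (-1.16) and PLK2 (-0.66). Doublets were marked among 15.3% of the cells of cluster 6 and 3.91% of those of cluster 11. Their part in the difference was not tested beyond leaving them out, after which 3 members were called higher.

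The step from the S phase to the G2/M cluster was compared between the pairs of clusters by the interaction, cluster 2 over cluster 6 against cluster 4 over cluster 11. AURKA was called, with a smaller step in the MYOD1-rich pair, where 3.91% of the 11720 genes tested were called higher and 5.38% lower, so that 1 of 10 members is near this background. Its step was 1.22 ± 0.08 from cluster 6 to 2 and 1.66 ± 0.05 from cluster 11 to 4, and the difference was -0.46 ± 0.11 (SE, adjusted p = 0.0334, edgeR), in the same direction in both libraries with -0.56 and -0.34. TOP2A had a difference of -0.50 ± 0.19 that did not pass (adjusted p = 0.135, edgeR), and BIRC5 one of 0.22 ± 0.06 (adjusted p = 0.0585). In libraries 1 and 2 these differences were -0.46 and -0.55 for TOP2A and 0.19 and 0.25 for BIRC5, and the test did not use the pairing by library. With the library as a block 2 members were called higher, BIRC5 and CDC20, and 3 lower, AURKA, AURKB and TOP2A. With that block 1284 of the 11720 genes tested were called higher and 1457 lower. In the fit of all 15 clusters AURKA was not called (adjusted p = 0.0515). Without TMM scaling 862 genes were called higher and 538 lower in place of 458 and 630. FOXM1, with -1.08, had the largest difference in the transcription factor list.

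The genes were also followed without the clusters. The 17198 cells with 2000 UMIs or more were ranked in each library by the share of their UMIs from the G2/M list. The members were taken out of this list, but its genes mark the same phase of the cycle. A rise of the members with it was therefore to be foreseen and is a description, not separate evidence. The ranking took in cells of all identities, myocytes included, so that it orders cells by G2/M RNA and not by time in the cycle. The part of cell type and of cells outside the cycle in the values below was not tested. All 10 genes rose from each quintile of cells to the next in both libraries. They did so along different curves. At the third quintile BIRC5 had 44.1% of its level in the highest quintile, against 10.8% for TOP2A and 10.6% for PLK1. BIRC5 went from 0.399 ± 0.00127 in the lowest quintile to 4.36 ± 0.191 in the highest (SD, n = 2 libraries), a ratio of 10.9. TOP2A went from 0.108 ± 0.00152 to 7.53 ± 0.827, a ratio of 70.0, and CDC20 and PLK1 rose by ratios of 51.5 and 49.6. Ranked by the S phase list instead, the 10 genes were not highest in the quintile with the most S phase RNA. BIRC5 was at 3.07 ± 0.0859 in the third quintile, 3.03 ± 0.123 in the fourth and 2.40 ± 0.0315 in the fifth, and PLK1 fell from 1.27 ± 0.0218 in the fourth to 0.711 ± 0.0345 in the fifth.

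**Figure D4:**
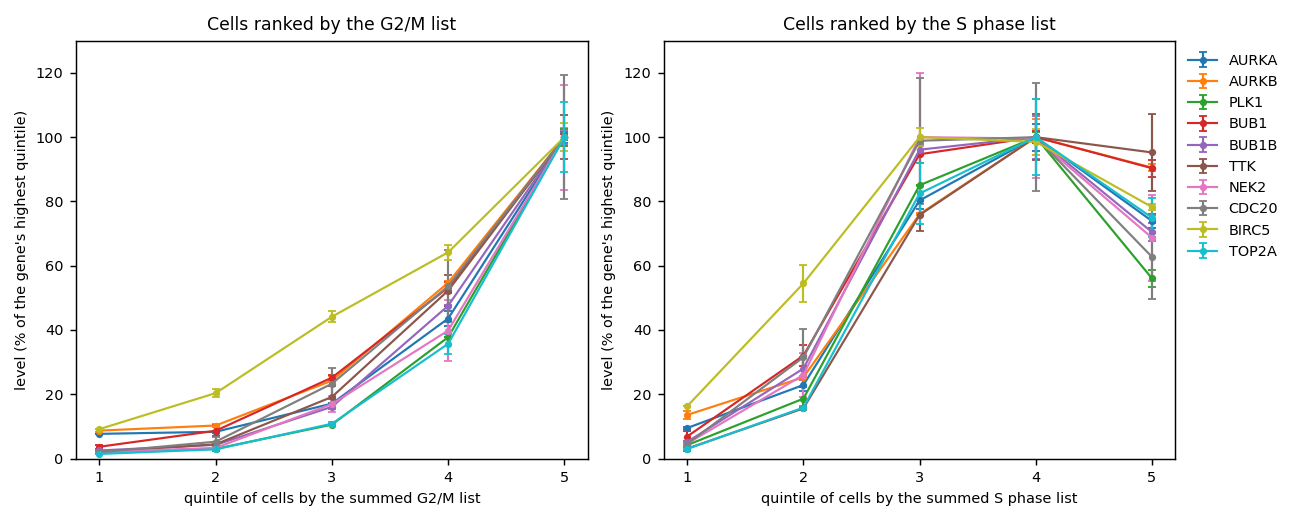
Level of each gene as percent of its highest quintile (vertical axis) over quintiles of cells ranked by a G2/M list without these genes (left) or by an S phase list (right), mean and SD of 2 libraries. On the left the BIRC5 line lies above the others at the third quintile with 44.1%, and on the right every line falls from the fourth to the fifth quintile.

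Within the G2/M clusters the genes were also compared over single cells. Over the 2119 cells of cluster 2, the correlation of log2 levels was 0.59 for AURKA and TOP2A, 0.45 for PLK1 and TOP2A and 0.42 for AURKB and TOP2A, and 6 of the 45 pairs were over 0.3. In cluster 4, with 1768 cells, AURKA and TOP2A gave 0.47, AURKB and TOP2A 0.43 and PLK1 and TOP2A 0.41. CDC20 and BIRC5 gave 0.39 there, AURKA and PLK1 0.39 and CDC20 and PLK1 0.38, and 7 of the 45 pairs were over 0.3. Cells share their library and differ in depth, and counting noise in sparse counts lowers such values, so they are given without a test and nothing is read from the weak ones.

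Cells with and without a TOP2A UMI were then set side by side, a division chosen after these correlations had been seen, which gives those with TOP2A again as levels and is no further evidence. In cluster 2, 349 cells (16.5%) had no TOP2A UMI, with a median of 13284 UMIs per cell against 19187.5 in the other 1770. AURKA was at 0.506 and 0.516 in libraries 1 and 2 of the cells without and at 1.79 and 1.74 in those with TOP2A, a ratio of 3.46 ± 0.123 (SD, n = 2 libraries). PLK1 and TTK had ratios of 2.01 ± 0.0861 and 1.99 ± 0.0145, and AURKB of 1.91 ± 0.267. CDC20, however, was at 1.76 and 2.20 without and at 1.67 and 2.15 with TOP2A, and BIRC5 at 4.37 and 4.53 without and at 4.42 and 4.66 with it, and their values overlapped. BUB1B had a ratio of 1.09 ± 0.0275. CCNB1 was at 2.72 ± 0.195 without and 2.86 ± 0.0356 with TOP2A, whereas MKI67, a proliferation marker, was at 3.72 ± 0.0192 and 8.51 ± 0.0909.

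Cluster 4 had 99 such cells (5.60%), with a median of 12549 UMIs against 19173. AURKB was at 0.467 and 0.469 without and at 1.35 and 1.26 with TOP2A, and AURKA at 0.651 and 0.802 against 1.72 and 1.64. CDC20 was at 2.00 and 2.83 in the cells without and at 1.39 and 1.92 in those with TOP2A, so that its ratio was 0.685 ± 0.00900, and BIRC5 had a ratio of 0.829 ± 0.115. CCNB1 and BUB1B were also lower with TOP2A, with ratios of 0.715 ± 0.0238 and 0.815 ± 0.163 and no overlap. In cluster 9, unlike cluster 4, CDC20 and BIRC5 were higher in the cells with TOP2A, with ratios of 1.62 ± 0.163 and 1.34 ± 0.0839 and no overlap. In cluster 6 the ratio of BIRC5 was 1.21 ± 0.0899 without overlap and that of CDC20 1.29 ± 0.131 with overlap, and in cluster 11 those of both genes, 1.01 ± 0.0455 and 1.00 ± 0.121, overlapped. AURKA had ratios of 4.21, 3.02 and 2.65 in clusters 9, 6 and 11. The cells without TOP2A were shallower in all 5 of these clusters, and the part of depth in the division was not tested.

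**Figure D5:**
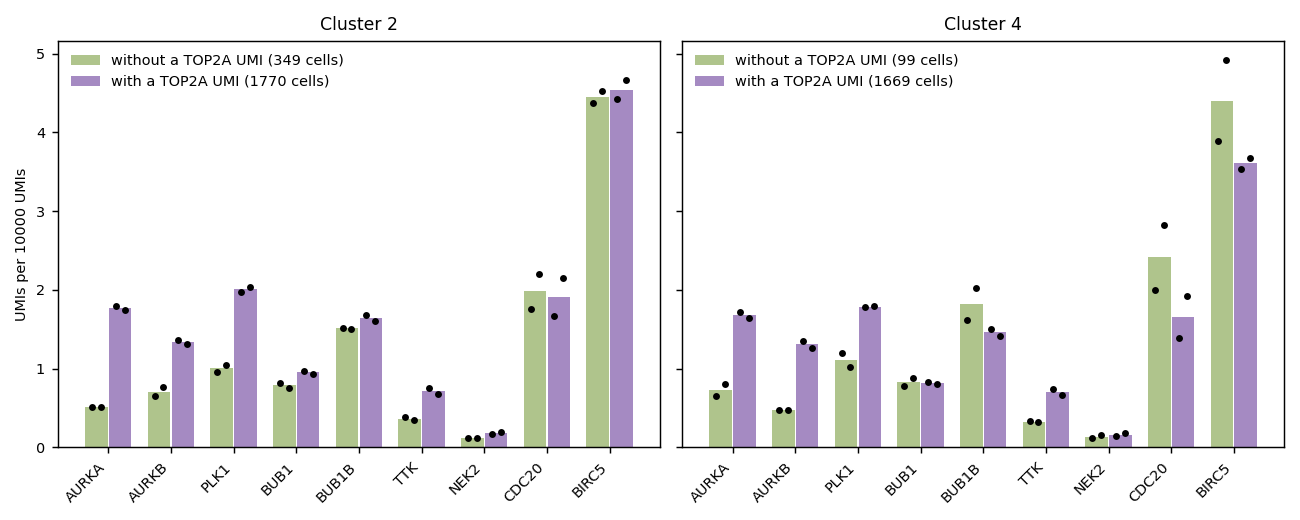
Levels of the other 9 genes (vertical axis, UMIs per 10000 UMIs) in cells without and with a TOP2A UMI, in clusters 2 (left) and 4 (right). Bars are the mean of 2 libraries and points the libraries. The AURKA, AURKB, PLK1 and TTK bars are lower without TOP2A in both clusters, while those of CDC20 and BIRC5 in cluster 2 are nearly level, with ratios of 0.961 and 1.02.

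Lastly, the genes with patterns most like the members over the 15 clusters were found by Pearson correlation of log2(level + 0.01) among 10052 genes with 500 UMIs or more. For the sum of the members they were NDC80, RACGAP1, PRC1, CENPT and PIMREG, with correlations from 0.98 to 0.99. Nearest to AURKA were RACGAP1, TPX2 and KIF11, and nearest to AURKB UBE2C, SHCBP1 and HMGB2. PLK1 was closest to FAM83D, PIMREG and MXD3, BUB1 to RACGAP1, CENPT and NDC80, BUB1B to NDC80, CDC25C and KIF20A, and TTK to DEPDC1, CDCA2 and CEP55. For NEK2 they were CCNB1, PIMREG and KIF18A, for CDC20 DLGAP5, KIF2C and NUF2, for BIRC5 CDCA3, SKA3 and CENPN, and for TOP2A GTSE1, FAM83D and KIFC1. The closest neighbour of BIRC5 had a correlation of 0.97, the lowest such value among the 10 genes, while the 3 neighbours of TTK were all at 0.99.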

How the data were processed

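Single-cell RNA sequencing of 2 10x Genomics libraries of the same cultured cells was analysed from the deposited files. The authors aligned reads to ARS-UCD1.2, counted UMIs and aggregated both libraries in Cell Ranger 3.0.2 with reads subsampled to equal mapped reads per cell, and deposited the resulting counts without further scaling. The suffix of the barcode gave the library of a cell. The authors also deposited, for 15 clusters, average counts scaled to a common total, here treated as a score, and columns of log2 fold changes and p-values, which were not used. These averages convert to exact sums, which fixed the cluster of all 19096 cells with 0 of 252240 sums differing.

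The members, lists and comparisons were chosen with earlier results of these data known. UMI sums per library and cluster were compared with edgeR 4.0.16 (TMM, filterByExpr, quasi-likelihood test, Benjamini-Hochberg adjustment, threshold 0.05). Alternatives used DESeq2 1.42.0, no TMM, no filter, the library as a block, all 15 clusters in 1 fit, cells from 2000 UMIs, and doublets left out. Both sums of a library come from 1 preparation, so the library number pairs them, and their deviations correlated from 0.20 to 0.57. In simulated counts with 200 genes changed 3-fold, 88.0%, 91.5% and 96.0% were recovered between clusters 2 and 4, 2 and 6, and 5 and 8, but 12.4%, 11.6% and 14.3% of the calls were genes left unchanged, more than the threshold allows. The simulation used only the fit without the library block, so this rate is not known for the blocked fits. Scrublet used an expected rate of 8%; its automatic threshold of 0.743 marked 0 cells of library 1, so that of library 2, 0.272, was used for both, a choice made after this was seen. Doublets were kept for the main values.

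The genes named are the 10 members, the genes most like them (3 for each and 5 for their sum), and up to 2 called genes with the largest change per list and comparison. Outside this rule, PAX7, MKI67 with CCNB1 beside TOP2A, and MYOD1, MYOG, MYH3, PDGFRA, PPARG, ZNF423 and COL1A1 identify cells. Of the lists, PTTG1 and UNG were not found by symbol. A search of promoters for motifs was not run and no sequence is given.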

Additional observations from a re-analysis of the deposited data

Results flagged for a closer look

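AURKA was called in the test of whether the step from the S phase to the G2/M cluster differed between the 2 pairs of clusters, -0.46 ± 0.11 on the log2 scale (SE, adjusted p = 0.0334, quasi-likelihood test of edgeR, Benjamini-Hochberg adjustment). The step was 1.22 from cluster 6 to cluster 2 and 1.66 from cluster 11 to cluster 4, and the difference was negative in 2 of 2 libraries. Over the alternative settings the adjusted p ran from 1.28e-07 with the library as a block to 0.0515. This is 1 of 10 members, near the 3.91% higher and 5.38% lower over all genes. With the library as a block AURKB, TOP2A, BIRC5 and CDC20 were called too, and 1284 of 11720 genes were called higher and 1457 lower. Groups of 2 libraries are too small for a search for outlying samples.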

How the results depend on the processing

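The members called higher and lower, set against 2 and 1 between clusters 2 and 4, became 5 and 1 with the library as a replicate block, 1 and 0 with DESeq2 or with no filter on low counts, and 1 and 1 with all 15 clusters in 1 fit. Between clusters 6 and 11 the 3 called higher became 6 with the block and 1 with DESeq2 or without TMM. Between clusters 7 and 9 the 1 higher and 5 lower became 3 and 2 without TMM, 1 and 3 with DESeq2, and 1 and 2 without cells under 2000 UMIs, and the log2 difference of PLK1 (0.11), TTK (0.13) and NEK2 (0.074) turned without TMM and that of BUB1 (-0.070) with no filter. Between clusters 12 and 3 DESeq2 called 3 lower in place of 6. For the interaction, 0 higher and 1 lower became 2 and 3 with the block, 1 higher without TMM, 2 lower without doublets and 0 lower in the fit of all clusters. The 10 calls of clusters 2 against 6 and 4 against 11 held under all 7 alternatives, and those of 5 against 8 under all but DESeq2, with 9. Of the 7, leaving out cells under 2000 UMIs removed no cell of these clusters, so it repeated the main fit and was no check. Only the comparison of clusters 7 and 9 had such cells to leave out. Clusters 2 and 4 held 79.5% of the cells with 5 or more members after thinning to 1000 UMIs, 76.8% at 5000 and 52.5% unthinned, against 84.0%. The members highest in cluster 2 or 4 numbered 10 in library 1 alone and 9 in library 2 alone, where NEK2 was highest in cluster 15 on 4 UMIs.

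Over all genes, the block moved the calls from 3497 to 5451 (2 against 4), 1818 to 3476 (6 against 11), 1672 to 4068 (2 against 6), 3093 to 4791 (4 against 11) and 1088 to 2741 (interaction), and DESeq2 to 2150, 1093, 981, 1858 and 624, and in 5 against 8 from 3120 to 1704 and 12 against 3 from 3650 to 2268. In 7 against 9 the calls moved from 6093 to 6491 without TMM, 4908 with DESeq2 and 4132 without cells under 2000 UMIs. The cause of these changes was not tested. NEK2 and the shallow clusters 7 and 13 to 15 limit precision most, and 2 libraries of the same cells measure no spread between animals. The promoter motif search was not run.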
